A study of Mus musculus with 24 samples.

Results

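Mouse serum was compared between week 1 and week 2 of a diet that produces non-alcoholic steatohepatitis (NASH), a fatty liver disease with inflammation, using arrays for mature microRNAs (miRNAs). The comparison covers every miRNA that the scanner software called detected on at least 2 of the 4 NASH serum arrays of these weeks, which are 390 of the 1881 mouse miRNAs on the array. The study holds 24 arrays, 12 of them serum, from C57BL/6NJcl males, and each combination of tissue, diet and feeding time (1, 2 or 6 weeks) has 2. Mice were bought at 5 weeks of age, kept for 1 week, and then put on the diet. The 2 NASH week 1 arrays and the 2 NASH week 2 arrays come from mice aged 7 and 8 weeks fed the NASH diet, which is high in fat, lacks choline, is defined in its amino acids and holds 0.1% methionine. The 2 control arrays of week 1 and the 2 of week 2 come from mice of the same ages on standard chow and lie on the same slide. Blood was drawn from the heart, RNA was extracted from 200 μL of serum, and 2.5 ng of it was labelled with the dye Cy3. Whether the 2 arrays of a group are separate animals, pools or repeats is not given in the labels, so a p-value speaks of the spread among arrays, part of which may be technical. The pair of groups asks which serum miRNAs differ between the first and the second week of feeding.

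A mature miRNA guides the Argonaute protein to messenger RNAs that pair with its seed, the stretch from base 2 to base 8, and miRNAs with the same seed form a family that shares targets. Serum miRNAs leave cells in vesicles, lipoproteins and protein complexes or by cell damage. Hepatocytes are the main source of miR-122, blood cells supply many others, and rupture of red cells during blood collection adds miR-451a and miR-16. miR-34a is a target gene of p53 that is known from fatty and injured liver, and the miR-17/92a cluster and its paralogs promote cell division.

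The sequences below are those of the miRNAs that the values turn on, from RefSeq on GRCm38.p6, written 5′ to 3′ with the seed in capitals. The miR-17/92a transcript on chromosome 14 and its paralogs on chromosomes X and 5 encode 5 of the 12 miRNAs with the largest differences downward among those whose weeks did not overlap. Their members are shown first because same-seed and same-transcript members can be compared. miR-106b, miR-93 and miR-25 lie together in an intron of Mcm7.
miR-20a-5p, chr14:115044183-115044205, plus strand: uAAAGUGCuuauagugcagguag
miR-20b-5p, chrX:52742159-52742181, minus strand: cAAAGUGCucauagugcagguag
miR-106b-5p, chr5:138165787-138165807, minus strand: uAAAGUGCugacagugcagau
miR-93-5p, chr5:138165574-138165596, minus strand: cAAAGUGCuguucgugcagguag
miR-19a-3p, chr14:115044048-115044070, plus strand: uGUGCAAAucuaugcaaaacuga
miR-19b-3p, chr14:115044358-115044380, plus strand: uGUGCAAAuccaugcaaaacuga
miR-92a-3p, chr14:115044476-115044496, plus strand: uAUUGCACuugucccggccug
miR-25-3p, chr5:138165332-138165353, minus strand: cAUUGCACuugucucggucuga

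miR-19b-3p and miR-92a-3p are also encoded on chromosome X, by the same bases. Pairs that share a seed or a stem but gave unlike values, or that a probe may not separate, are shown next, with miR-34a-5p, which had the largest difference upward.
miR-34a-5p, chr4:150068473-150068494, plus strand: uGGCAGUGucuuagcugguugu
miR-215-5p, chr1:185313610-185313630, plus strand: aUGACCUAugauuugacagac
miR-192-5p, chr19:6264857-6264877, plus strand: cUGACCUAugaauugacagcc
miR-101a-3p, chr4:101346957-101346977, minus strand: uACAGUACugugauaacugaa
miR-101c, chr9:3038680-3038698, minus strand: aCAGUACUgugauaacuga
miR-221-3p, chrX:19146307-19146329, minus strand: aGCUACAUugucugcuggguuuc
miR-222-3p, chrX:19146901-19146923, minus strand: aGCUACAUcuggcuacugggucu
let-7b-5p, chr15:85707325-85707346, plus strand: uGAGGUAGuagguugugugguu
let-7g-5p, chr9:106178846-106178867, plus strand: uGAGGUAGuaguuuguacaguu
miR-342-3p, chr12:108658680-108658702, plus strand: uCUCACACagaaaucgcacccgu

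Values are log2 of the background-subtracted spot intensity after each array was divided by its own 75th percentile, so that 0 is the level of that percentile and a difference of 1 is a doubling. Levels of different miRNAs are not comparable, since each probe binds with its own strength. A floor of -4.71 was set under all arrays. Differences are week 2 minus week 1, with the standard error (SE) of limma, fitted to 426 miRNAs on all 12 serum arrays, and with p-values adjusted by Benjamini-Hochberg over the 426 at a threshold of 0.05.

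More miRNAs were detected at week 1 than at week 2. The NASH week 1 arrays detected 391 and 399 miRNAs and the week 2 arrays 338 and 313, without overlap. In control serum 345 and 362 were detected at week 1 against 301 and 235 at week 2, so that the order of the weeks was the same on both diets. The scaling intensity was 561.7 and 580.3 at NASH week 1 and 395.3 and 381.6 at week 2, a log2 difference of -0.55 that the scaling removes, and the control difference was -1.41. The 4 bright control probes named dmr differed between the NASH weeks by -0.09 to 0.23 on the log2 scale, and 4 others, named hur and mr, by -0.33 to -0.01. Dimmer controls were left out of these ranges. Among them hur_6 was at 23.72 and 28.88 at NASH week 1 and 18.83 and 16.2 at week 2, without overlap. The other controls left out overlapped between the NASH weeks. No spot was saturated. The haemolysis index, which subtracts the log2 level of miR-23a-3p from that of miR-451a, was 2.35 and 3.57 at NASH week 1 and 1.38 and 2.38 at week 2, a difference of -1.08, with -0.90 in control serum. Both NASH arrays of week 1 lay in column 2 of the slide and both of week 2 in column 4, so that week and slide column cannot be told apart. Replicate 1 lay in row 1 and replicate 2 in row 2 of every column, which allows the difference to be given within each row.

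**Figure D1:**
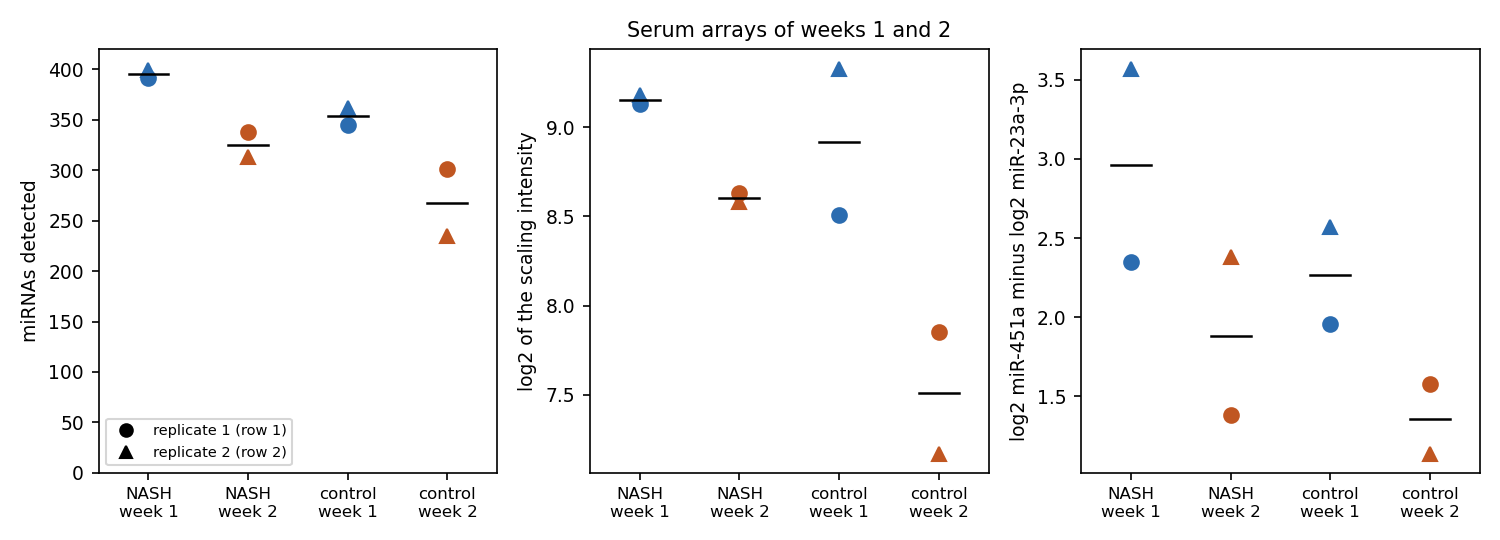
Number of miRNAs detected (left), log2 of the intensity used for scaling (middle) and haemolysis index (right, log2 units) for each of the 8 serum arrays of weeks 1 and 2. Circles are replicate 1, triangles replicate 2 and bars the group means. Week 2 lies below week 1 in the number detected and in the scaling intensity on both diets, while the index of the 2 weeks overlaps in NASH serum.

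No miRNA passed the threshold between the weeks in NASH serum: 0 of 426 were called by limma (percent called 0), higher or lower. At an unadjusted p below 0.05 there were 16 (3.76%), of which 4 were higher (0.939%) and 12 lower (2.82%) at week 2. Control serum had 5 calls over the same weeks (1.17%), 2 higher (0.469%) and 3 lower (0.704%), with 39 below an unadjusted p of 0.05 (9.15%). The difference of the change between the diets had 0 calls (0%), with 15 below an unadjusted p of 0.05 (3.52%). The zero depended on single arrays: miRNAs passed on leaving out 1 array of NASH week 1 or control week 2. Such a fit leaves 1 array in a group, so only differences are given. Without replicate 1 of NASH week 1 they were -1.257 (miR-101a-3p), -1.149 (miR-101c), -0.461 (miR-1839-5p) and -0.215 (miR-362-3p). In the same fit, the others were -0.433 (miR-511-3p), -0.323 (miR-721) and 1.199 (miR-8109). Without replicate 2 of NASH week 1 miR-721 differed by -0.507, and without either replicate of control week 2 miR-1982-5p differed by -0.127. On both NASH arrays of week 2, miR-101c, miR-1839-5p, miR-511-3p, miR-721 and miR-1982-5p lay at the floor. The floor understates spread, so passing does not establish a change. Those outside the rule for named miRNAs were named after their values were seen. An interval of 95% around a difference reached a median of 0.87 log2 to either side over the 290 members detected on all 4 arrays. A change of less than about that size could thus not have been resolved for a typical miRNA. The interval is not adjusted for the 426 miRNAs, so a larger change could also miss the threshold. miR-106b-5p did so at -1.32 (adjusted limma p 0.851).

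Most members differed little. Of the 290 detected on all 4 arrays, 220 differed by less than 0.5 log2, the median absolute difference was 0.25 and the median difference -0.05. The median gap between replicates was 0.23 at week 1 and 0.26 at week 2. 2 members were over 1 log2 higher at week 2 and 10 were over 1 log2 lower, within a range of -2.14 to 1.17. The weeks did not overlap, week 2 above week 1, for 50 of the 390 members (11.7% of all 426 fitted), and week 2 below week 1 for 67 (15.7% of all fitted). In control serum the same counts over the 426 were 68 (16%) above and 49 (11.5%) below. Of the remaining members, 42 were detected on 3 arrays and 58 on 2. Just outside the rule, 39 miRNAs were detected on 1 of the 4 arrays. Values at the floor made up 37.2% of the members' values, which understates their differences and their spread.

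Within the rows, 190 of the 290 members had the same sign of difference in row 1 and row 2, and the differences correlated at 0.59 (Pearson, n = 290 miRNAs, which share the arrays and their scaling). The differences of NASH and control serum, which share no array but lie on 1 slide, correlated at 0.42 (Spearman 0.32, n = 290). Of the 290, 53.1% had the same sign on both diets. In the row count and the diet count, 2 differences of 0, as at the floor, counted as the same sign. A difference of 0 beside another value counted as unlike. Among the 60 members whose weeks did not overlap and that differed by over 0.5 log2, 40 had the sign of the control difference.

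**Figure D2:**
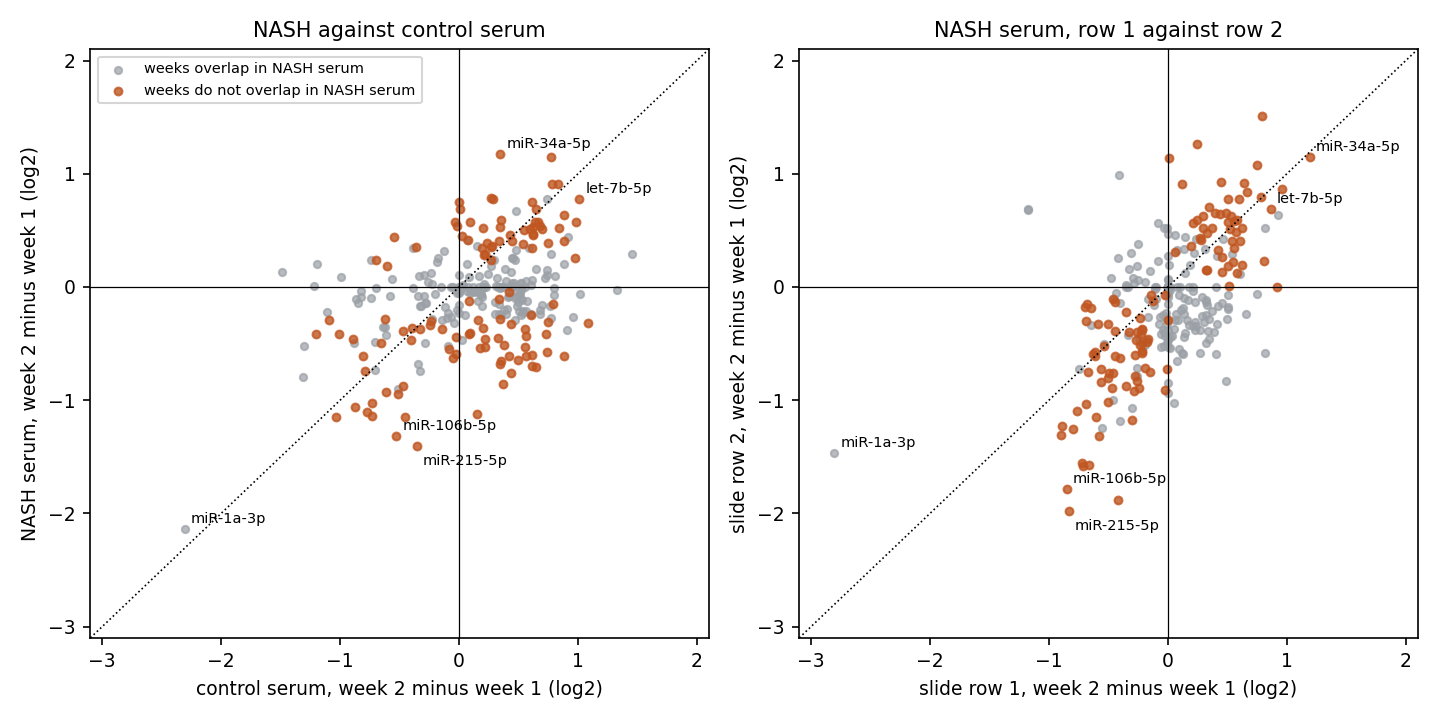
Week 2 minus week 1 differences (log2) of the 290 miRNAs detected on all 4 NASH serum arrays, NASH against control serum (left) and slide row 2 against row 1 in NASH serum (right). Each point is a miRNA, orange where the NASH weeks did not overlap, and the dotted line marks equal differences. The points scatter widely around the line in both panels, with correlations of 0.42 (left) and 0.59 (right), and miR-1a-3p is lowest on both diets at -2.14 and -2.31.

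miR-34a-5p had the largest difference upward. Its level was -0.92 and -1.33 at week 1 and 0.28 and -0.18 at week 2, so both arrays of week 2 lay above both of week 1. The difference was 1.17 (SE 0.24, n = 2 and 2, 2.25-fold), with a 95% interval of 0.59 to 1.75. It was 1.19 in row 1 and 1.15 in row 2. The unadjusted limma p was 0.00228 and the adjusted p 0.33, and the lowest adjusted p among the alternatives was 0.0906. Control serum was lower at both weeks, at -2.47 and -2.14 against -1.97 and -1.94, a difference of 0.35. The change on the NASH diet exceeded that in controls by 0.82 (SE 0.34), with an adjusted limma p of 0.908 for that difference. The family members miR-34b and miR-34c, of either arm, were not among the miRNAs fitted.

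The immune-cell miRNA miR-342-3p was at 1.5 and 1.05 at week 1 and at 2.46 and 1.92 at week 2. Its difference was 0.91 (SE 0.45), with 0.96 and 0.86 within rows 1 and 2, and it was 0.78 in controls. miR-221-3p, which promotes proliferation and is linked to stellate cell activation, had levels of -2.13 and -2.17 at week 1 and -1.35 and -1.37 at week 2. The replicates of each week lay far closer together than the weeks, with a difference of 0.79 (SE 0.28) against 0.27 in controls. Its adjusted limma p was 1, and 0.029 when the 4 NASH arrays were fitted alone. miR-222-3p, its neighbour on the X chromosome with the same seed, gave a difference of 0.52 with no overlap of the weeks, and 0.60 in controls. Both arms of miR-139, a miRNA that restrains proliferation, were above week 1 on both arrays of week 2, by 0.69 (5p) and 0.78 (3p), against 0.65 and 0.29 in controls.

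The passenger strand let-7d-3p was at -1.61 and -2.76 at week 1 and at -0.82 and -1.24 at week 2, a difference of 1.15 (SE 0.69) that rests on replicates over 1 log2 apart at week 1. The other miRNAs of the upper 12 were miR-125a-5p at 0.91, let-7b-5p at 0.78, miR-8109 and miR-326-3p at 0.75 each, miR-574-3p at 0.69 and miR-331-3p at 0.64. miR-8109 was near the floor at week 1, with -3.82 and -4.71 against -3.58 and -3.45, so that its difference was 0.25 in row 1 and 1.26 in row 2. None of these 12 had an adjusted p below 0.05.

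The let-7 family, which restrains growth and is abundant in differentiated cells, had 7 of its 9 listed members fitted, all detected on the 4 arrays. 0 were called, and 5 were above 0 and 2 below. The median was 0.42 in NASH and 0.15 in control serum, against 0.00 and 0.09 over all 426. Over the 290 detected on all 4 arrays, the medians were -0.05 and 0.22. Without scaling the let-7 median was -0.14, against -0.61 for all miRNAs detected on the 4 arrays. Members with the seed in common had values of either sign: let-7b-5p and let-7c-5p were at 0.78 each, while let-7g-5p and let-7i-5p were at -0.52 and -0.35. The let-7b-5p levels were -0.22 and 0.59 at week 1 and 0.65 and 1.28 at week 2, and those of let-7g-5p were -1.45 and 0.59 against -1.71 and -0.19. The week 1 replicates of let-7g-5p stood 2 log2 apart, so its weeks overlapped.

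**Figure D3:**
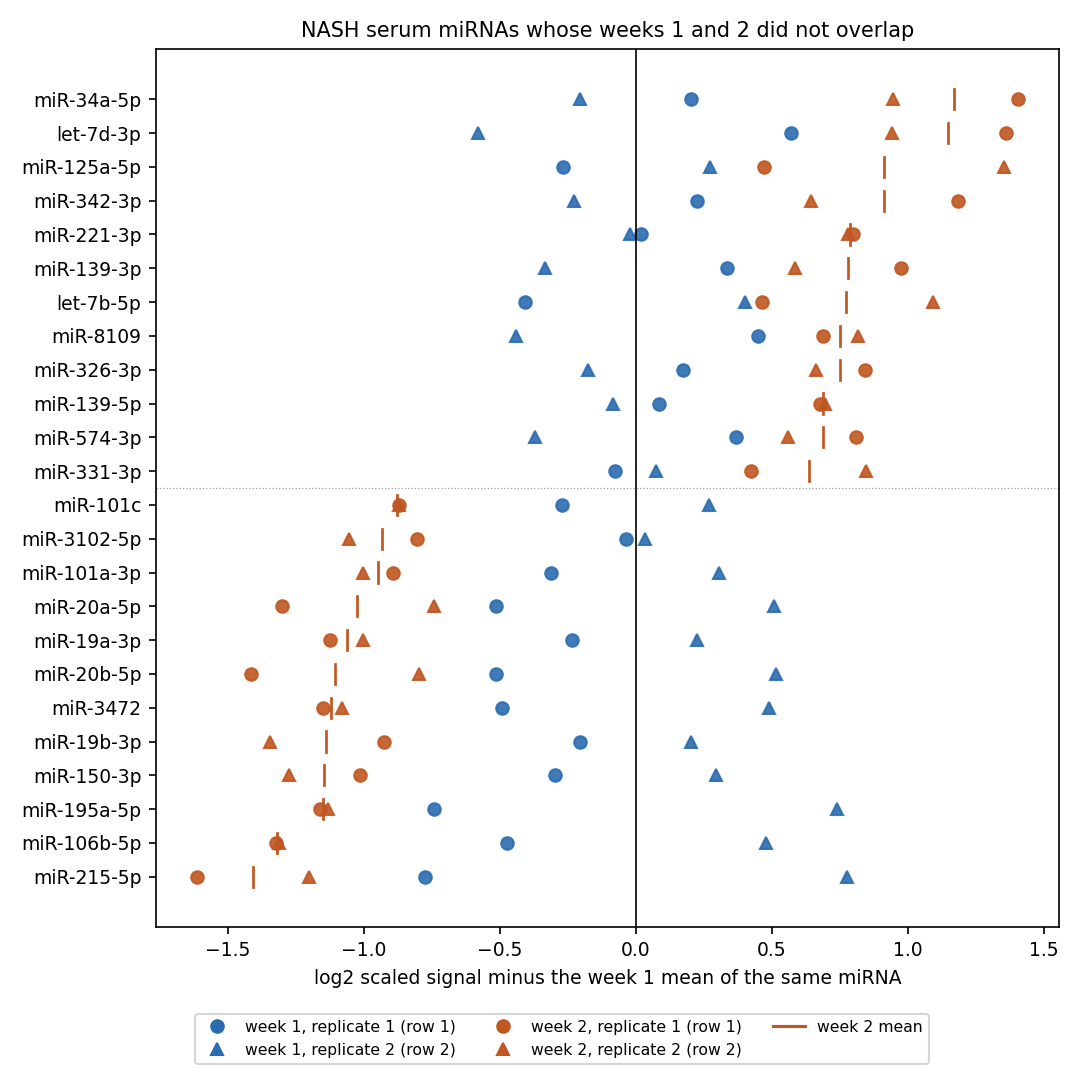
Scaled log2 signal of each NASH serum array minus the week 1 mean of the same miRNA, for the 12 miRNAs per direction with the largest differences among those detected on all 4 arrays whose weeks did not overlap. Circles are slide row 1, triangles row 2 and ticks the week 2 means. Among the 12 lower miRNAs replicate 2 of week 1 lies right of replicate 1 each time.

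The miR-17/92a cluster and its paralogs held 5 of the 12 largest differences among the miRNAs with lower values at week 2. Of 12 listed members 10 were fitted, 0 were called, and 5 had an unadjusted p below 0.05, all lower (2.82% of all fitted). The weeks did not overlap for 6 with week 2 below (15.7% of all fitted) and 1 with week 2 above (11.7% of all fitted). The list's median was -0.70 in NASH serum and -0.33 in control serum. Over all fitted it was 0.00 and 0.09, and over the 290 detected on all 4 arrays -0.05 and 0.22. In NASH serum the list's median was below that of the 290 under each scaling. With normexp background correction the median was -0.19. miR-106a-5p and miR-363-3p were not among the 10.

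Among these, miR-106b-5p was at -1.11 and -0.16 at week 1 and at -1.96 and -1.95 at week 2. Week 2 lay below both week 1 arrays, by -1.32 (SE 0.41, 0.401-fold), with -0.85 in row 1 and -1.79 in row 2, an unadjusted limma p of 0.016 and an adjusted p of 0.851. miR-19b-3p was at 0.18 and 0.59 at week 1 and -0.54 and -0.96 at week 2, a difference of -1.14 (SE 0.29) with an adjusted limma p of 0.577. miR-19a-3p, which differs from it by few bases, was at -2.77 and -2.31 against -3.66 and -3.54, a difference of -1.06 (SE 0.31). miR-20a-5p and miR-20b-5p, a second near-identical pair, differed by -1.03 and -1.10. Probes for such pairs may bind both members, so that each pair may carry 1 signal. The controls had values of the same sign throughout, -0.53 for miR-106b-5p, -0.73 for miR-19b-3p, -0.88 for miR-19a-3p, -0.73 for miR-20a-5p and -0.78 for miR-20b-5p. The change on the NASH diet differed from that in controls by -0.79 (SE 0.58) for miR-106b-5p and by -0.41 (SE 0.41) for miR-19b-3p, neither past the threshold (adjusted limma p 0.908 and 0.913).

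Members of the same transcripts had values of either sign, and the differences between members were not tested. miR-92a-3p, made from the transcript that also yields miR-19a, miR-19b and miR-20a, was at 1.61 and 1.42 at week 1 and 1.90 and 2.05 at week 2, a difference of 0.46 (SE 0.25), and 0.62 in controls. miR-93-5p, with the seed of miR-106b-5p and from the same intron, was at -0.33 and 0.01 against -0.22 and -0.19, a difference of -0.05 (SE 0.23). miR-25-3p of that intron differed by 0.19. Of the 4 members with the seed AAAGUGC in RefSeq, miR-106b-5p, miR-20a-5p and miR-20b-5p had weeks without overlap and miR-93-5p did not. miR-17-5p, from the transcript of miR-20a, was fitted but detected on fewer than 2 of the 4 NASH arrays, so it is no member. Of the 10 listed miRNAs fitted, 2 were above 0, 7 were below, and miR-17-5p was neither.

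miR-215-5p, which liver and intestine produce, gave the largest difference downward among miRNAs whose weeks did not overlap. It was at -3.64 and -2.09 at week 1 and at -4.48 and -4.07 at week 2, a difference of -1.41 (SE 0.53), -0.84 in row 1 and -1.98 in row 2, with -0.36 in controls. miR-192-5p, which has the same seed and is abundant in hepatocytes, was at 1.5 and 2.04 against 1.43 and 1.78, a difference of -0.16 (SE 0.38). miR-194-5p, which is encoded beside both and was picked after its value was seen, differed by -0.09. The near-identical miR-101a-3p and miR-101c differed by -0.95 (SE 0.22) and -0.88 (SE 0.18). The week 2 levels of both were at or next to the floor, at -4.55 and -4.66 for miR-101a-3p, and control serum gave -0.51 and -0.48. Each had an adjusted p below 0.05 only without replicate 1 of NASH week 1, at 0.0323 and 0.0155, where the lone replicate is assumed to vary like the other groups.

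miR-195a-5p differed by -1.15 (SE 0.61), and it rests on replicate 2 of week 1, with levels of -4.29 and -2.81 against -4.71 and -4.68. The miR-15 and miR-16 family to which it belongs, restraints of the cell cycle with the seed AGCAGCA, had all 6 members fitted, 0 called, 5 below and 1 above 0. Its median was -0.48 in NASH and -0.38 in control serum. miR-16-5p was at 1.75 and 2.73 against 1.49 and 2.01, a difference of -0.49 (SE 0.46), and miR-15b-5p differed by 0.08. miR-150-3p at -1.15, miR-3472 at -1.12 and miR-3102-5p at -0.93 complete the lower 12, of which only miR-3472 had a control difference of the other sign, 0.15. The smallest adjusted p of all belonged to miR-721, singled out after its value was seen, at 0.0627. It lay at -4.21 and -4.39 at week 1 and at the floor on both week 2 arrays, a difference of -0.41, and in control serum it fell by 1.01 (adjusted limma p 0.000236).

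The red-cell list had a median of the same sign as these lower miRNAs. Of its 6 miRNAs 5 were fitted, 0 were called, and the median was -0.27 in NASH and -0.07 in control serum, while miR-144-5p was not fitted. Without scaling its median was -0.57, near the -0.61 of all miRNAs detected on the 4 arrays. Their summed scaled signal on the linear scale was 32.6 and 78.4 at NASH week 1 and 24.5 and 41.3 at week 2. miR-451a, the main red-cell miRNA, was at 4.75 and 6.12 against 4.29 and 5.12, a difference of -0.73 (SE 0.59) with overlapping weeks, and -0.71 in controls. The array with the highest sum, replicate 2 of week 1, is also the one with the higher values of miR-106b-5p, miR-20a-5p, miR-195a-5p and miR-215-5p. The part of red-cell RNA in the lower values of these miRNAs was not tested. For a serum level, fewer cells releasing a miRNA and less of it released per cell cannot be told apart.

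Hepatocyte miRNAs showed no common direction. Of 12 listed, 11 were fitted, 0 were called, and the median was 0.00 on both diets. In NASH serum 3 were above 0 and 5 below, and the others had a difference of exactly 0. In this list and those below with a NASH median of 0.00, that median came from such members. miR-122-5p, the main hepatocyte miRNA, was at 3.93 and 4.24 at week 1 and at 4.30 and 4.76 at week 2. Week 2 lay just above week 1, by 0.44 (SE 0.99), with an interval of -1.94 to 2.83. Control serum was far more spread, at 1.60 and -0.12 against -1.33 and 1.72, and differed by -0.55. The other arm, miR-122-3p, differed by -0.16, and miR-148a-3p by 0.09. The list's summed signal was 19.4 and 24.5 at week 1 and 24 and 31.8 at week 2. miR-802-5p was not among those fitted.

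For stellate cells and fibrosis, all 10 miRNAs were fitted, 0 were called and the median was 0.00. miR-21a-5p, which fibrosis and inflammation induce, was at 2.94 and 3.81 against 2.19 and 3.08, a difference of -0.74 (SE 0.51) with overlap, and the fibroblast miRNAs miR-199a-3p and miR-214-3p differed by -0.79 and -0.04. The miR-29 family, repressors of collagen genes, had 4 of 4 fitted, 0 called and a median of 0.32 in NASH and 0.38 in control serum. miR-29a-3p was at 2.93 and 2.76 against 3.48 and 2.98, a difference of 0.39 (SE 0.25). Without scaling the family's median was -0.19, above the -0.61 of all. Immune-cell miRNAs had 13 of 13 fitted, 0 called, a median of 0.00 and 3 with week 2 above week 1 without overlap, against 11.7% of all fitted. miR-223-3p of neutrophils and platelets was at 1.38 and 2.41 against 1.83 and 2.27, a difference of 0.16 (SE 0.46). miR-150-5p of lymphocytes differed by 0.41 and miR-146a-5p, a brake on NF-kB signalling, by -0.13.

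**Figure D4:**
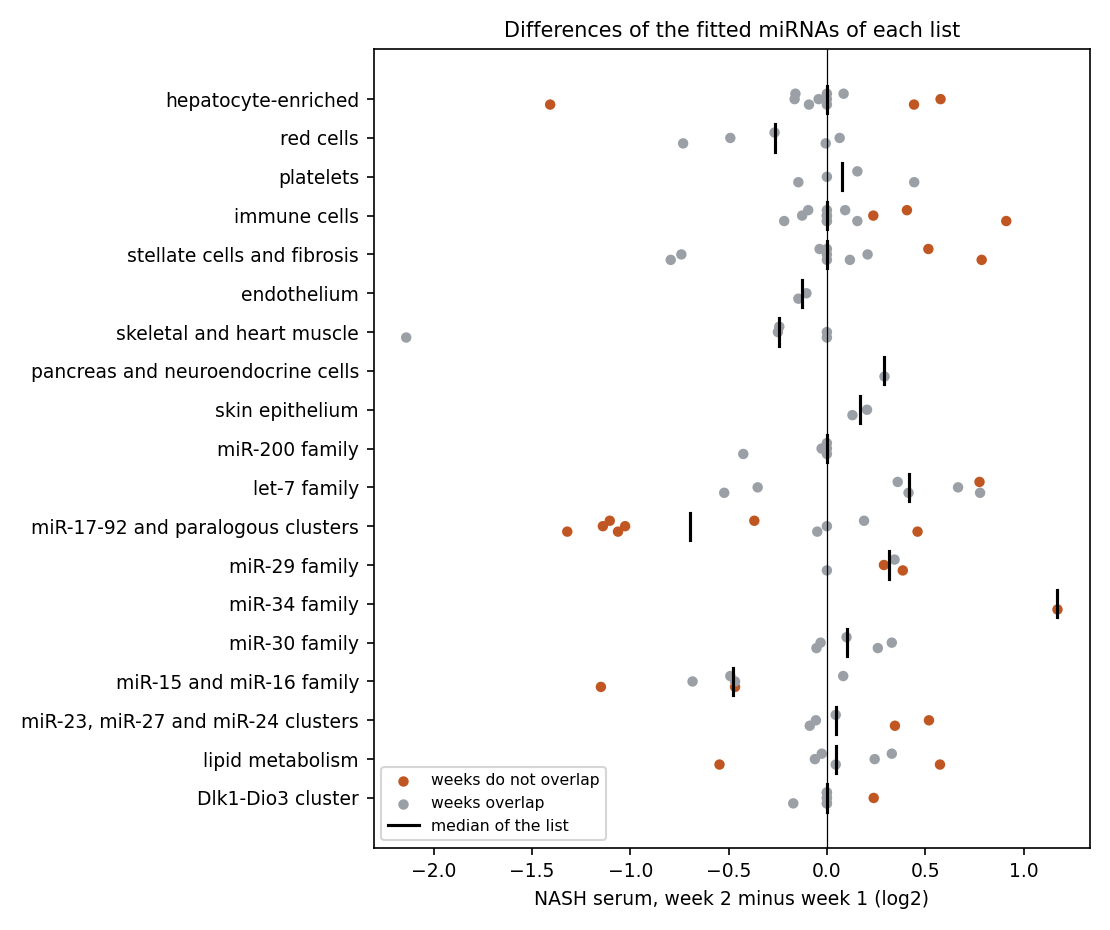
Week 2 minus week 1 differences (log2) of the fitted miRNAs in each list. Points are miRNAs, orange where the NASH weeks did not overlap, and black bars are list medians. Most medians lie near 0, the miR-17/92a list lies at -0.70 and the let-7 list at 0.42.

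Platelet miRNAs had 4 of 5 fitted with a median of 0.08, and the endothelial pair of miR-126a, of which the 3p arm differed by -0.15, had a median of -0.12. Among muscle miRNAs 5 of 7 were fitted, 0 were called and the median was -0.24. miR-1a-3p of heart and skeletal muscle had the lowest difference of all, with levels of -1.10 and 0.90 at week 1 and -3.90 and -0.57 at week 2. The difference was -2.14 (SE 1.17) and the weeks overlapped, with -2.31 in controls. miR-133a-3p and miR-133b-3p went in opposite directions in the rows, at -1.18 in row 1 and 0.68 and 0.69 in row 2. The heart miRNAs miR-208a-3p and miR-208b-3p were not fitted. Of the 7 pancreas and neuroendocrine miRNAs only miR-375-3p was fitted, at 0.29 against 1.45 in controls. The skin miRNAs miR-205-5p and miR-203-3p differed by 0.20 and 0.13 in NASH serum and by -1.19 and -1.49 in controls. The adjusted limma p of the difference between diets was 0.908 for each. Their summed scaled signal on the linear scale was 0.112 to 0.129 on the 4 NASH arrays, near the floor. It was 0.737 and 0.988 at control week 1 and 0.262 and 0.488 at control week 2. A fall of the control size could thus not have shown in NASH serum.

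Lists tied to metabolism and gene clusters stayed near the background. The lipid metabolism list had 7 of 8 fitted and a median of 0.05, with miR-107-3p at -0.55 and miR-378a-3p at 0.24. The miR-23, miR-27 and miR-24 clusters had 5 of 5 fitted and a median of 0.05, with miR-23a-3p at 0.35 (week 2 above week 1) and miR-27a-3p at -0.09. The miR-30 family had 5 of 5 fitted and a median of 0.10. All 5 miRNAs of the epithelial miR-200 family were fitted with a median of 0.00, and miR-200b-3p was off the floor on 1 NASH array only. The imprinted Dlk1-Dio3 cluster had 8 of 31 fitted and a median of 0.00, with miR-434-3p at 0.24 and miR-494-3p at -0.17. No member of these lists was called.

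Of the 10 members with the brightest probes, a choice that gives no order of amounts, miR-451a, miR-21a-5p, miR-122-5p, miR-29a-3p and miR-23a-3p are described above. miR-22-3p differed by 0.03, miR-709 by -0.18, miR-3963 by -0.13, miR-3473b by 0.26 and miR-5100 by -0.49, and only miR-3473b among these had weeks without overlap.

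Detection differed between the weeks. 44 members were detected on both arrays of week 1 and on none of week 2, and 2 in reverse. Over all members, 78 were detected on more arrays at week 1 and 10 on more at week 2. Their signals lay at the lower end of the range: for 42 of the 44 the week 1 mean was at the floor, and both of the reverse kind, miR-3475-5p and miR-7241-5p, were at the floor in week 2 as well. The 2 others were miR-511-3p, a miRNA of macrophages, with a week 1 mean of -4.50, and miR-200a-3p, with -4.69, so that no fold is given for any of them.

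RefSeq held a mature sequence for 319 of the 390 members. GC content had a correlation of -0.03 with the difference over the 237 detected on all 4 arrays that have a sequence, and length 0.03, as a description over miRNAs of the same arrays. GC content correlated at -0.49 with the gap between the replicates of NASH week 1 (row 2 minus row 1) and at -0.18 with that of week 2. Of the 290 members detected on all 4 arrays, those numbered 1000 or above, mostly found late by sequencing and with a median GC content of 63.6%, had a median difference of -0.17. Without overlap, 41 of them lay below week 1 (39.8%) and 9 above (8.74%). The other 187, with lower numbers and a median GC content of 47.8%, had a median of 0.00, with 24 below (12.8%) and 41 above (21.9%). Over all 290 the shares were 22.4% below and 17.2% above. In control serum both groups had positive medians, 0.23 and 0.22.

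In controls the calls were miR-181a-5p and miR-181b-5p, which rose by 1.63 and 1.72, and miR-344i, miR-712-5p and miR-721, which fell by 0.82, 0.89 and 1.01 (same limma fit, adjusted p below 0.05, named after their values were seen). Both miR-181 miRNAs, known from lymphocytes, lay at the floor on all 4 NASH arrays, at a difference of 0.00, and the difference between diets had an adjusted limma p of 0.222. The control count depended on the processing and ran from 0 with quantile normalization (38 below an unadjusted p of 0.05) to 327 with normexp background correction. The scanner software's detection flag was set for them on 3 of the 4 arrays each.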

How the data were processed

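The deposited values are intensity, read spot by spot from scanner files whose headers name Agilent Feature Extraction (the submitters' processing notes give version 11.5). The software had subtracted background, and nothing had been normalized between arrays. Control and outlier-flagged spots were left out and spots averaged per probe. Arrays were scaled to their 75th percentile, taken over 252 probes that passed the background flag on all 12 serum arrays. A floor was set from the 5th percentile of scaled signals that passed this flag, as a median of the arrays' values, log2 was taken, and the brightest probe stood for a miRNA. limma 3.58.1 (R 4.3.3) was fitted to 6 diet-by-week groups, with eBayes (prior degrees of freedom 0.53, residual 6), which moderates little. The fit was run on simulated data with independent noise on each array, and its bias was checked without a floor. That check does not cover values at the floor or deviations shared between arrays. The text names up to 12 non-overlapping miRNAs per direction by size, up to 4 per list by level, the 10 with the brightest probes, up to 10 miRNAs per direction detected in 1 week only, and 14 fixed miRNAs. The members, lists and rules were chosen with earlier results of these data known. Liver arrays were not used.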

Additional observations from a re-analysis of the deposited data

How the results depend on the processing

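Across 27 alternatives the count of calls in NASH serum stayed at 0 in 19. It was 1 with the total gene signal (miR-7687-5p), 3 with scaling over all probes (miR-1982-5p, miR-466q and miR-669p-3p), 2 without scaling (miR-370-3p and miR-7017-3p) and 3 with the 4 NASH arrays alone (miR-1982-5p, miR-221-3p and miR-532-3p), names chosen after values were seen, and 0 to 7 on leaving out an array. The control count of 5 became 13 with the total gene signal, 327 with normexp background correction (5 of them lower), 2 with scaling over all probes, 0 with quantile normalization, 31 without scaling (0 higher, 31 lower), 2 with the mean of probes, 3 and 2 with the floor halved and doubled, 0 with miRNAs detected on all 12 serum or all 4 NASH arrays, and 1 each with no detection filter, the 8 arrays of the slide, limma's treat, the replicate block and the slide row block, and 2 to 42 on leaving out an array. The difference between diets gave 2, 1, 2 and 2 calls with scaling over all probes, no scaling, the mean of probes and the floor doubled, and 0 to 28 on leaving out an array. The cause was not tested. Same-numbered arrays of the 2 NASH weeks deviated together (r 0.60 over 290 miRNAs), as did those of NASH and control week 1 (0.55), while control weeks 1 and 2 gave 0.04 and NASH and control week 2 gave 0.14. With 2 numbers this does not establish pairing. With the replicate number as a block NASH serum had 0 calls (16 below an unadjusted p of 0.05, smallest adjusted limma p 0.428). With slide row as a block it had 0 (15, 0.122). Replicate number and slide row coincide, so the 2 blocks are not independent checks.

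Of the 85 named miRNAs with a fitted difference, 35 had no turn of sign under any alternative run for them, where a 0 counted as no turn. Of these, miR-126a-5p, miR-150-3p, miR-200b-3p and miR-434-3p reached 0 under an alternative. Among the 35 were miR-34a-5p (0.61 to 1.40), miR-19b-3p (-1.70 to -0.93), miR-106b-5p (-1.88 to -0.85) and miR-215-5p (-2.18 to -0.38). 6 others had a difference of 0, and 3 of these took both signs across the alternatives. The following signs turned, in log2 difference. No miRNA was called in NASH serum, so none of these could be a called one. With the total gene signal: miR-126a-3p 0.02, miR-146a-5p 0.001, miR-203-3p -0.014, miR-214-3p 0.092, miR-24-3p 0.097, miR-27a-3p 0.057, miR-30b-5p 0.11, miR-3963 0.022, miR-486a-3p -0.079, miR-486a-5p 0.16, miR-93-5p 0.074. With the mean of probes: miR-22-3p -0.005, miR-486a-5p 0.012. With median centring: miR-200a-3p 0.055, miR-214-3p 0.045, miR-24-3p 0.026, miR-30b-5p 0.05, miR-486a-5p 0.076, miR-93-5p 0.033. With no scaling: miR-122-5p -0.11, miR-148a-3p -0.47, miR-150-5p -0.15, miR-151-5p -0.11, miR-15b-5p -0.47, miR-203-3p -0.43, miR-205-5p -0.35, miR-22-3p -0.53, miR-222-3p -0.04, miR-223-3p -0.40, miR-23a-3p -0.21, miR-25-3p -0.37, miR-27b-3p -0.51, miR-29a-3p -0.17, miR-29b-3p -0.21, miR-29c-3p -0.27, miR-30a-5p -0.46, miR-30c-5p -0.23, miR-30d-5p -0.30, miR-3473b -0.30, miR-375-3p -0.27, miR-378a-3p -0.31, miR-486a-3p -0.53, miR-92a-3p -0.095. With normexp background correction: miR-122-3p 0.084, miR-214-3p 0.18, miR-22-3p -0.039, miR-494-3p 0.12. With quantile normalization: miR-214-3p 0.078, miR-30a-5p -0.066, miR-30b-5p 0.011, miR-3963 0.38. With scaling over all probes: miR-122-3p 0.004, miR-126a-3p 0.02, miR-146a-5p 0.038, miR-192-5p 0.001, miR-214-3p 0.13, miR-24-3p 0.11, miR-27a-3p 0.078, miR-30b-5p 0.13, miR-3963 0.04, miR-486a-5p 0.16, miR-93-5p 0.12. With scaling over probes of the 4 NASH arrays: miR-214-3p 0.004, miR-30b-5p 0.009, miR-486a-5p 0.035. Without scaling the median of all 290 was -0.61. Leaving out 1 array turned the sign of the following, given as lowest to highest difference: let-7c-5p -0.013 to 1.57, let-7g-5p -1.54 to 0.50, let-7i-5p -0.98 to 0.28, miR-122-3p -0.43 to 0.11, miR-126a-3p -0.65 to 0.36, miR-133a-3p -0.89 to 0.40, miR-133b-3p -0.91 to 0.42, miR-146a-5p -0.36 to 0.11, miR-148a-3p -0.053 to 0.22, miR-15a-5p -1.39 to 0.019, miR-15b-5p -0.28 to 0.45, miR-192-5p -0.43 to 0.11, miR-203-3p -0.15 to 0.41, miR-205-5p -0.16 to 0.57, miR-214-3p -0.13 to 0.058, miR-22-3p -0.28 to 0.33, miR-223-3p -0.36 to 0.68, miR-24-3p -0.23 to 0.12, miR-27a-3p -0.34 to 0.16, miR-27b-3p -0.15 to 0.24, miR-30a-5p -0.21 to 0.41, miR-30b-5p -0.29 to 0.23, miR-30d-5p -0.049 to 0.57, miR-3963 -0.63 to 0.39, miR-486a-3p -0.38 to 0.51, miR-486a-5p -0.093 to 0.081, miR-494-3p -0.99 to 0.65, miR-709 -0.44 to 0.089, miR-93-5p -0.22 to 0.12. Floor values, 2 arrays a group and no counts behind an intensity limit the precision.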

Other observations

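Week 6 NASH serum lay on another slide, so that slide and week cannot be told apart, and its values are given without a test. miR-34a-5p was at 0.71 and 0.80 there, miR-342-3p at 3.78 and 2.95, and miR-8109 at -2.28 and -2.05, which in each case lies above the 4 arrays of weeks 1 and 2. Week 6 control values are not given for these miRNAs, so no change particular to the NASH diet can be read from them. miR-221-3p was at 0.06 and -0.51. miR-106b-5p was at -2.31 and -2.91 and miR-20a-5p at -2.53 and -2.80, while miR-19b-3p was at -0.90 and -1.22. miR-451a was at 3.66 and 2.80, below the arrays of weeks 1 and 2. miR-122-5p was at 4.18 and 4.69. Week 6 control serum, on the same slide as week 6 NASH serum, had miR-451a at 5.61 and 5.42. It had miR-106b-5p at -1.03 and -1.29 and miR-122-5p at 0.80 and 0.54.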
